A study of Mus musculus with 10 samples.

Results

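The myelin genes described here are *Mbp*, *Mog*, *Mag*, *Cnp*, *Mobp*, *Mal*, *Cldn11*, *Ugt8a* and *Opalin*, which are 9 of the 24453 genes in the count table and were listed by name. Their reads were followed in 10 RNA-seq libraries of intratelencephalic projection neurons (IT-PNs) from layer 5 of mouse primary motor cortex, with 5 libraries of the *Fezf2+ve* type and 5 of the *Fezf2-ve* type. All animals were male, had a Swiss Webster background and were hemizygous for a transgene with GFP under regulatory sequence of *Fezf2*, so that GFP reports this transgene. Cholera toxin subunit B (CTB), a tracer that axons carry back to the cell body, was injected in the left motor cortex at postnatal day 23 to 25, and cells came from layer 5 on the right side at postnatal day 28 to 32. By FACS, the cells of each animal were split into *Fezf2+ve* IT-PNs, with GFP and CTB, and *Fezf2-ve* IT-PNs, with CTB alone. Each of the 5 animals thus gave 1 library of each type, and a library is named by its type and animal.

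Myelin is the membrane that oligodendrocytes wrap around axons, where it insulates the axon and speeds conduction. The proteins and lipids of the sheath are made in the oligodendrocyte, and some of the mRNAs, *Mbp* among them, are carried out along its processes to the place where the sheath forms. In the cortex the deep layers hold more myelinated axons than the upper layers, and genes of the sheath serve as markers of mature oligodendrocytes in brain tissue.

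Between 89138 and 217738 reads were counted on genes in a library, and the 9 myelin genes together had 910 reads over the 10 libraries. At this depth 3 reads, taken as the floor of detection, equalled 13.8 to 33.7 counts per 1000000 gene reads of the library (CPM), and this floor covers counting error only, since copies made by PCR were counted as reads. Of the 9 genes, 8 had a read in at least 1 library. The *Fezf2+ve* libraries of animals 1 to 5 had reads on 4, 8, 7, 5 and 5 of the genes, and the *Fezf2-ve* libraries on 7, 5, 8, 3 and 5. The ranges overlapped, and the mean difference of *Fezf2+ve* minus *Fezf2-ve* within an animal was 0.20 ± 2.39 genes (SD, n = 5).

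The *Fezf2+ve* library of animal 2 stood apart from the other libraries. It held 439 of the 910 myelin reads, which was 48.2%, whereas it held 6.93% of all gene reads. Of the 8 genes with a read, 7 had their highest CPM in this library, and *Ugt8a* had its highest CPM in the *Fezf2-ve* library of animal 1. The summed level and the fitted values are therefore also given without animal 2. The libraries were made from pools of sorted cells, in which more oligodendrocytes and more myelin mRNA per cell cannot be told apart. The sort was set to keep single, live cells with CTB and to leave out debris and doublets. Whether oligodendrocytes passed it was not tested.

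**Figure D1:**
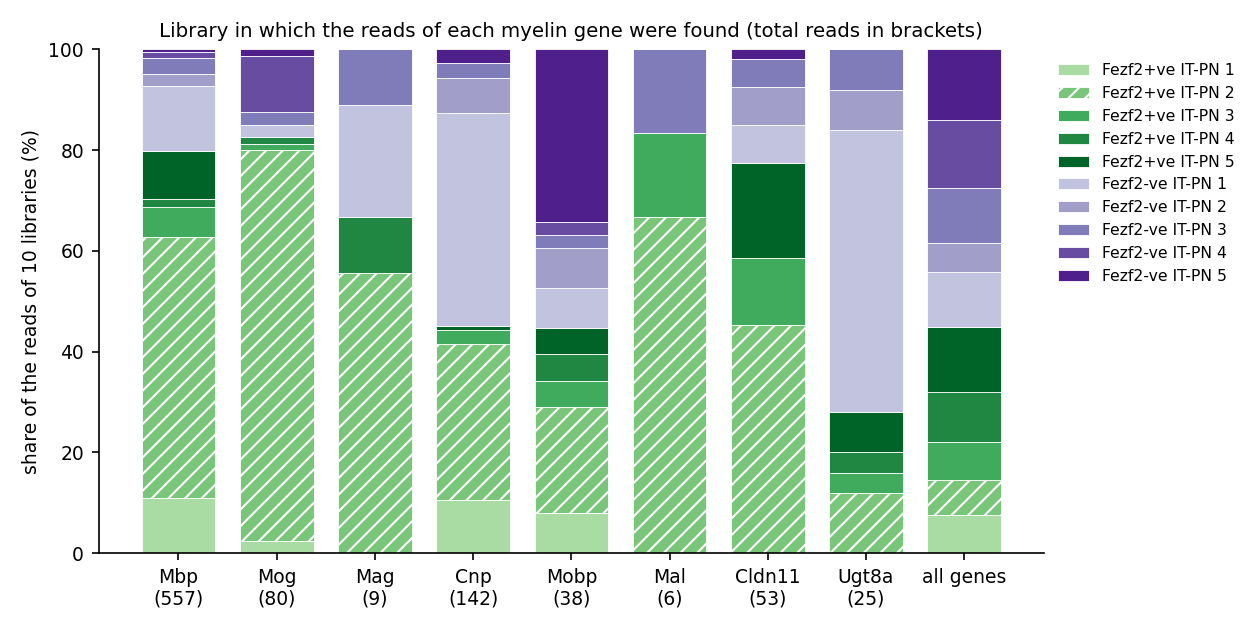
Share of the reads of each myelin gene, and of all genes, found in each of the 10 libraries, in percent of the gene's reads, with the number of reads in brackets. The hatched part is the *Fezf2+ve* library of animal 2, which held 77.5% of the *Mog* reads and 6.93% of the reads of all genes.

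*Mbp* encodes myelin basic protein, which draws the cytoplasmic faces of the sheath together into compact myelin. It lies on the plus strand of chromosome 18 of GRCm38 (mm10) from 82475146 to 82585637, and its listed span also holds the Golli transcripts, which start 79.3 kb ahead of the first start of the classic transcripts and are also made outside oligodendrocytes. Reads of both kinds of transcript are added in the *Mbp* count. In *Fezf2+ve* libraries 1 to 5, *Mbp* had 61, 289, 33, 8 and 53 reads, equal to 516, 2685, 279, 52.8 and 261 CPM. In *Fezf2-ve* libraries it had 72, 14, 17, 7 and 3 reads, equal to 429, 157, 101, 33.1 and 13.8 CPM. The values of the types overlapped, but within each of the 5 animals the *Fezf2+ve* library had the higher CPM. On the log2(CPM + 1) scale the level was 8.46 ± 2.03 (SD, n = 5) for the *Fezf2+ve* type and 6.34 ± 1.90 (SD, n = 5) for the other, with a mean difference within animals of 2.12 ± 1.87 (SD). A two-sided exact permutation test over the pairs gave p = 0.0625, which is the smallest that 5 animals allow. *Mbp* was the only one of the 7 myelin genes tested with a higher CPM in *Fezf2+ve* libraries in every animal, and among all 7409 genes tested 1.62% had this pattern. The genes tested are those that reached 10 CPM in 2 or more libraries.

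*Mog* and *Mag* encode immunoglobulin-like proteins of the sheath surface. *Mog*, myelin oligodendrocyte glycoprotein, is found on the outermost layer and appears late in oligodendrocyte maturation. It had 2, 62, 1, 1 and 0 reads in *Fezf2+ve* libraries 1 to 5, equal to 16.9, 576, 8.47, 6.60 and 0 CPM. In *Fezf2-ve* libraries it had 2, 0, 2, 9 and 1 reads, equal to 11.9, 0, 11.9, 42.6 and 4.59 CPM. Thus *Mog* was above 3 reads in the *Fezf2+ve* library of animal 2 and the *Fezf2-ve* library of animal 4 only, and the types overlapped. *Mag*, myelin-associated glycoprotein, sits on the innermost layer, facing the axon. It had 5 reads in the *Fezf2+ve* library of animal 2 and 1 read in that of animal 4, and in *Fezf2-ve* libraries it had 2 reads in animal 1 and 1 read in animal 3. The other 6 libraries had no *Mag* read. With 9 reads in all, a difference between the types in *Mag* was not detectable at this depth.

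*Cnp* encodes an enzyme that keeps cytoplasmic channels open in the sheath and is already made by maturing oligodendrocytes, and *Mobp* encodes a small basic protein of compact myelin. *Cnp* had 15, 44, 4, 0 and 1 reads in *Fezf2+ve* libraries 1 to 5, equal to 127, 409, 33.9, 0 and 4.92 CPM. In *Fezf2-ve* libraries it had 60, 10, 4, 0 and 4 reads, equal to 357, 112, 23.7, 0 and 18.4 CPM. In both types the libraries of animals 1 and 2 were the highest and those of animal 4 had no read, and the *Fezf2+ve* library was higher in 2 animals, lower in 2 and equal in 1. *Cnp* (plus strand of chromosome 11 of GRCm38, 100574904 to 100591729) shares 8.91 kb with *Dnajc7* on the other strand, and *Dnajc7* had 4 reads in the 10 libraries. *Mobp* had 3, 8, 2, 2 and 2 reads in *Fezf2+ve* libraries and 3, 3, 1, 1 and 13 in *Fezf2-ve* libraries. Its level was 4.48 ± 1.09 (SD, n = 5) and 4.12 ± 1.46 (SD, n = 5) on the log2(CPM + 1) scale, and the values of both types lay within the same range but for the *Fezf2+ve* library of animal 2, with 74.3 CPM. *Mobp* and *Mbp* were the only members with a read in each of the 10 libraries.

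*Cldn11* encodes a claudin that seals the sheath by tight junctions, *Mal* a lipid-raft protein of myelin membrane and *Opalin* a transmembrane protein of mature oligodendrocytes. *Cldn11* had 0, 24, 7, 0 and 10 reads in *Fezf2+ve* libraries 1 to 5, equal to 0, 223, 59.3, 0 and 49.2 CPM. In *Fezf2-ve* libraries it had 4, 4, 3, 0 and 1 reads, equal to 23.8, 44.9, 17.8, 0 and 4.59 CPM. The 3 *Fezf2+ve* libraries with reads were above all *Fezf2-ve* libraries, but 2 *Fezf2+ve* libraries had none, so the types overlapped. *Mal* had 4 reads in the *Fezf2+ve* library of animal 2 and 1 read each in the *Fezf2+ve* and *Fezf2-ve* libraries of animal 3, and was below the filter for testing. *Opalin* had no read in any library, which allows a level of up to 13.8 to 33.7 CPM, depending on the library.

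*Ugt8a* encodes the galactosyltransferase that makes galactosylceramide, the main glycolipid of the sheath. It had 0, 3, 1, 1 and 2 reads in *Fezf2+ve* libraries 1 to 5, equal to 0, 27.9, 8.47, 6.60 and 9.83 CPM. In *Fezf2-ve* libraries it had 14, 2, 2, 0 and 0 reads, equal to 83.4, 22.4, 11.9, 0 and 0 CPM. The *Fezf2-ve* library of animal 1 held 56.0% of its 25 reads, the other 9 libraries had at most 3 reads each, and the types overlapped.

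**Figure D2:**
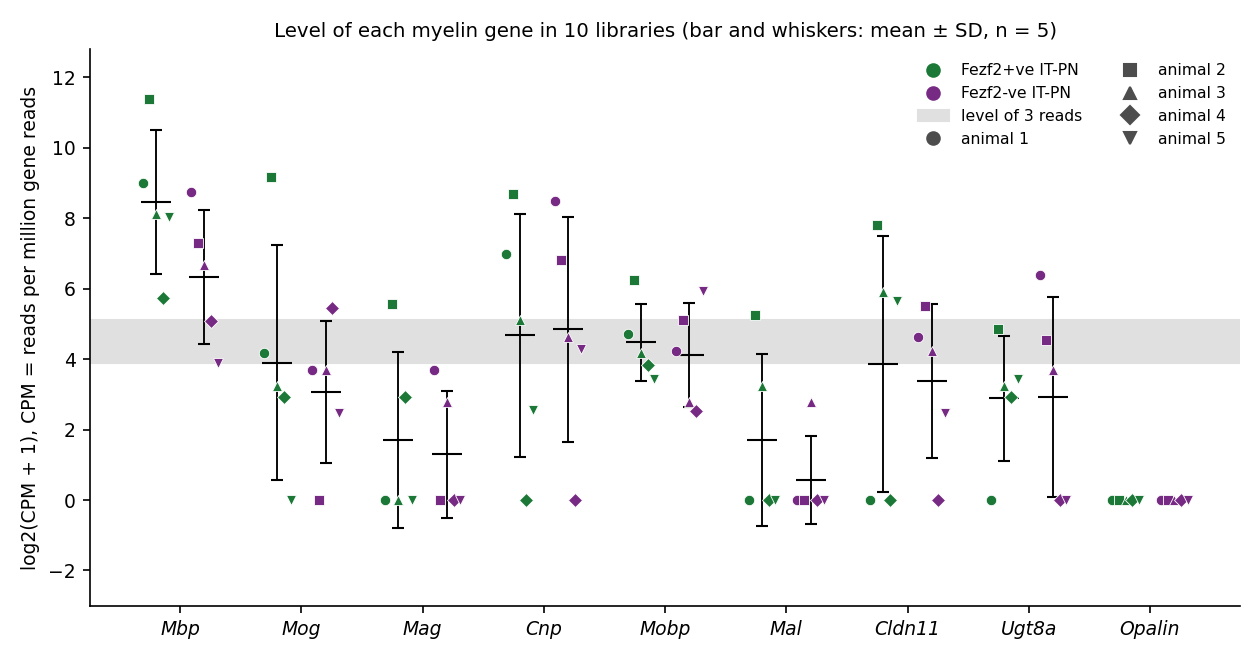
Level of each myelin gene as log2(CPM + 1) in 5 *Fezf2+ve* (green) and 5 *Fezf2-ve* (purple) libraries, with a symbol for each animal, the mean and SD (n = 5) as bar and whiskers, and the level of 3 reads in the 10 libraries as a grey band. The *Fezf2+ve* library of animal 2 (square) is the highest point for 7 of the 8 genes with a read, and the types overlap for each of these genes.

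Summed over the 9 genes, the level in *Fezf2+ve* libraries 1 to 5 was 686, 4078, 415, 85.8 and 334 CPM. In *Fezf2-ve* libraries it was 935, 370, 184, 80.4 and 101 CPM. The *Fezf2+ve* library was the higher in 4 of the 5 animals, all but animal 1, although in animal 4 the sums differed by 5.33 CPM. The mean was 1120 ± 1668 CPM (SD, n = 5) for the *Fezf2+ve* type and 334 ± 355 CPM (SD, n = 5) for the other, and without animal 2 it was 380 ± 247 and 325 ± 409 CPM (SD, n = 4). As a log2 ratio within animals, the difference was 1.20 ± 1.53 (SD, n = 5), and 0.64 ± 0.99 (SD, n = 4) without animal 2. The difference was thus smaller than its spread over animals in both cases. *Mbp* alone gave 61.2% of the 910 reads, and without *Mbp* the mean log2 ratio of the sums was 0.21 (n = 5). Across the 10 libraries, the Spearman correlation between the CPM of 2 of the 7 genes tested had a median of 0.39 over 21 pairs (-0.11 to 0.83), and of 0.17 (-0.54 to 0.76) over the 9 libraries other than the *Fezf2+ve* library of animal 2. These correlations rest on few reads per library and are given as a description.

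When all genes were fitted together with a term for the animal (the block), 0 of the 7 myelin genes tested had an adjusted p at or below 0.1 (Benjamini-Hochberg adjustment of edgeR's quasi-likelihood test), against 0% of the 7409 genes. An unadjusted p under 0.05 was found for 0 of the 7 and for 288 of all genes (3.89%). Without the block the same test called 0 of the 7 myelin genes and 279 of all genes (3.77%), and DESeq2 with the block called 0 of the 2 myelin genes to which it gave an adjusted p and 98 genes in all. The median log2 fold change between the types (above 0 where *Fezf2+ve* is the higher) was 0.40 for the 7 genes and -0.16 for all genes tested, and 6 of the 7 and 45.7% of all genes tested had a value above 0. The median of the myelin genes ranged from 0.10 (without animal 4) to 0.72 (without animal 1) with 1 animal left out, with 0.14 without animal 2, and was 1.26 without the block, and -0.81 without the block and the *Fezf2+ve* library of animal 2. Among the 7 genes, *Mbp* had the smallest p, and its log2 fold change was 2.11 ± 1.33 (standard error, SE; unadjusted p = 0.0872, adjusted p = 0.998 after Benjamini-Hochberg adjustment of edgeR's quasi-likelihood test). Leaving out 1 animal at a time moved the value of *Mbp* between 1.50 and 2.56, with 1.56 ± 1.34 (SE) without animal 2. DESeq2 with the block gave *Mbp* an unadjusted p of 0.0376 and an adjusted p of 0.282 after Benjamini-Hochberg adjustment. Without the block the value by edgeR was 2.24, and 1.06 when the *Fezf2+ve* library of animal 2 was left out as well. *Cldn11* had a log2 fold change of 1.35 ± 1.75 (SE) and *Mag* of 0.65 ± 2.72 (SE). The values of *Mobp* (0.40 ± 1.33, SE), *Mog* (0.19 ± 1.70, SE), *Ugt8a* (0.04 ± 1.88, SE) and *Cnp* (-0.14 ± 1.49, SE) were, as those of *Cldn11* and *Mag*, smaller than their standard errors. Without animal 2 the log2 fold change of *Mog* was -1.10 ± 1.57 (SE), and that of *Cnp* was -0.84 ± 1.51 (SE). *Cldn11* then had a value of 0.92 ± 2.12 (SE), *Mobp* of 0.20 ± 1.36 (SE) and *Ugt8a* of 0.08 ± 2.24 (SE), and *Mag* was not tested. As none of the 7 genes passed the test, no direction is given for any of them. The sign of the value changed in at least 1 other setting for *Mog*, *Cnp*, *Mobp*, *Mag* and *Ugt8a*, and in none of 14, which reuse the same libraries, for *Mbp* and *Cldn11*.

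**Figure D3:**
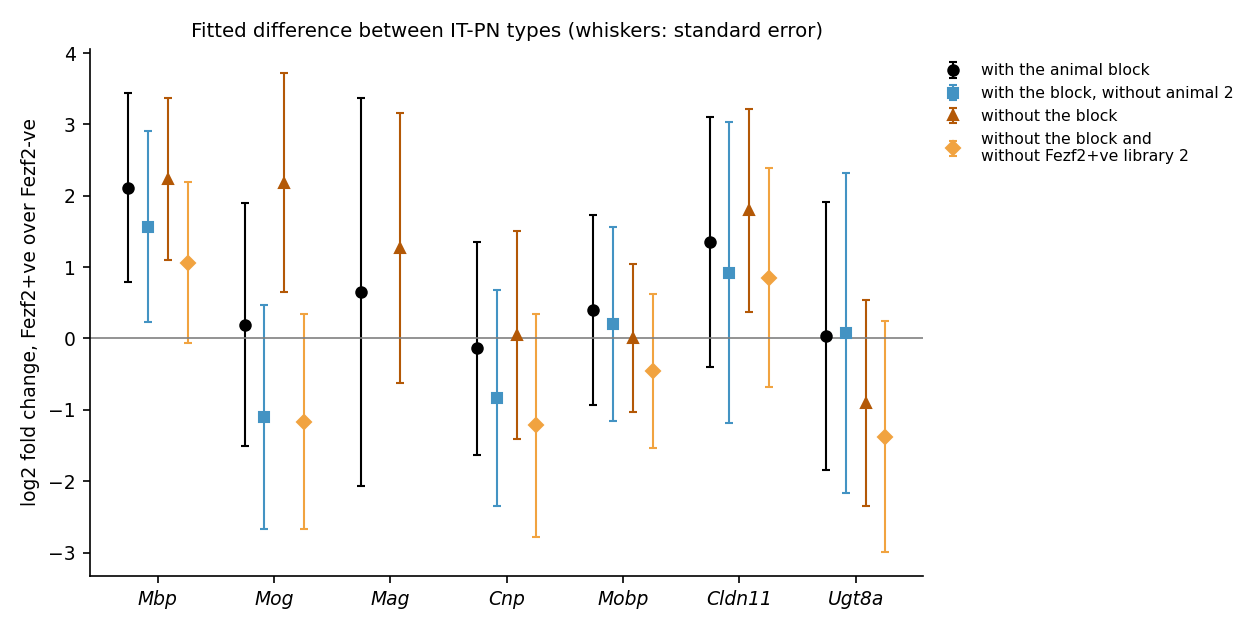
Log2 fold change between the types, above 0 where *Fezf2+ve* IT-PNs are the higher, for the 7 myelin genes tested, with its standard error as whiskers, from 4 fits with or without the animal block and with or without the libraries named in the legend. *Mog* has a value of 2.18 without the block and of -1.16 when the *Fezf2+ve* library of animal 2 is left out as well, and *Mag* was not tested in the fits without that library.

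Promoter sequence is shown for *Cnp* and *Mog*, which had the most reads after *Mbp*, and for *Mobp*, whose window held the most motif matches. Transcription of sheath genes in oligodendrocytes is known to depend on SOX10 and MYRF. The letters ACAAAG, a core of SOX sites, and CTGGCAC or CTGGTAC, forms of the MYRF site, were therefore searched on both strands in the 250 bases before each start. RefSeq starts on GRCm38.p6 were given for 8 of the 9 genes, with 10 windows. The SOX letters were in 5 of the 10 windows, against 16.5% of 32841 promoter windows of this length, and the MYRF letters in 4, against 5.93%. Of the 3 windows of *Mag*, 2 overlap and hold the same SOX and MYRF match, counted for each, so the windows are not independent. The sequence shortly after the start matched 0 annotated transcripts for these 2 windows and 5 for the other *Mag* window, which held neither motif. A match to such short letters is not a site. In the sequences below, which stop where the annotated gene begins, capitals mark a match on either strand.
Cnp, chr11:100574689-100574903, plus strand: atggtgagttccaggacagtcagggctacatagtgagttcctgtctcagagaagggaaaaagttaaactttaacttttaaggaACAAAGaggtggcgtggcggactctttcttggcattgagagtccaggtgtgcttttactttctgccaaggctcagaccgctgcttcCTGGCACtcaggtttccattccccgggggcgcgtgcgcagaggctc
Mog, chr17:37023399-37023648, minus strand: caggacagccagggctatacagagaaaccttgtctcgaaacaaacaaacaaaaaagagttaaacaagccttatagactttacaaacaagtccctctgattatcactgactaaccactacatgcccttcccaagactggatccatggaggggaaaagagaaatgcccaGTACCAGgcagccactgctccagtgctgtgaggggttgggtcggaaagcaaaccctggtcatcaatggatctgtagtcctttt
Mobp, chr9:120149492-120149706, plus strand: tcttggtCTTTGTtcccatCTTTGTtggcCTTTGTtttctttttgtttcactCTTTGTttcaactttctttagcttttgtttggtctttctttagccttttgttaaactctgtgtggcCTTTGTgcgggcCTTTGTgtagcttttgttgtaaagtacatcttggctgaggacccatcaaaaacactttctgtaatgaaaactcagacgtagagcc
The *Cnp* window held 1 match to each motif and the *Mog* window 1 to the MYRF letters, while the *Mobp* window held 6 SOX matches within a stretch rich in T. The windows of *Mal*, *Cldn11* and *Ugt8a* held neither motif.

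Of 38 further myelin and oligodendrocyte genes, 33 had a read and 24 were tested. With the block 0 of the 24 were called by edgeR's quasi-likelihood test, 16 had a log2 fold change above 0, against 45.7% of all genes tested, and the median was 0.53. Their summed level in *Fezf2+ve* libraries 1 to 5 was 1227, 10981, 847, 4651 and 669 CPM, and in *Fezf2-ve* libraries 2793, 718, 1915, 331 and 308 CPM. In 3 of the 5 animals the *Fezf2+ve* library was the higher, and that of animal 2 again had the highest sum, while most of the sum of animal 4 was *Gal3st1* (4486 CPM), which is also on the list of lipid genes below.

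*Bcas1*, a gene switched on in oligodendrocytes that are beginning to make myelin, was the only one of the 24 with an unadjusted p under 0.05, against 3.89% of all genes tested. It had 2, 45, 9, 2 and 30 reads in *Fezf2+ve* libraries 1 to 5 and 5, 2, 2, 0 and 0 in *Fezf2-ve* libraries. In all animals but animal 1 the *Fezf2+ve* library was the higher, and the types overlapped. The log2 fold change was 3.27 ± 1.66 (SE; unadjusted p = 0.0430, adjusted p = 0.998 after Benjamini-Hochberg adjustment of edgeR's quasi-likelihood test). With 1 animal left out it ranged from 2.38 to 4.28. The unadjusted p of the same test was then 0.0207 without animal 1 and 0.0885 to 0.140 without animal 2, 3, 4 or 5. The next smallest p belonged to genes with a value below 0, *Ninj2* (-2.87 ± 1.98, SE), *Evi2a* (-2.53 ± 2.02, SE) and *Trf* (-2.81 ± 2.25, SE), and in each animal *Evi2a* had the lower CPM in the *Fezf2+ve* library. Several defining genes of mature oligodendrocytes were at or near 0: *Nkx6-2*, *Hapln2*, *Ppp1r14a* and *Klk6* had no read in any library, and the 9 reads of *Ermn*, 5 of *Gjb1* and 2 of *Aspa* were all in the *Fezf2+ve* library of animal 2. The regulator genes *Sox10* and *Myrf* had 17 and 6 reads.

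Myelin is rich in cholesterol and galactolipids, and 36 genes of sheath lipid synthesis, *Ugt8a* among them, were examined with the same fit. Of these, 25 were tested and 0 were called, 19 had a log2 fold change above 0, against 45.7% of all genes tested, and the median was 0.57. The reads of *Gal3st1* and *Degs1*, the genes of the list with the most reads, were concentrated in single libraries. *Scd2*, next in reads with 384, had 4 to 106 in each of the 10 libraries. *Degs1*, whose enzyme makes ceramide, had 7, 617, 4, 1 and 5 reads in *Fezf2+ve* libraries and 9, 3, 2, 0 and 1 in *Fezf2-ve* libraries. In each of the 5 animals the *Fezf2+ve* library was the higher, and 95.1% of its 649 reads were in that of animal 2. *Gal3st1*, whose enzyme turns galactosylceramide into sulfatide, had 697 reads, of which 680 were in the *Fezf2+ve* library of animal 4, and is on both lists. Neither library pattern was shared by *Ugt8a*, the enzyme between them in the pathway.

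On the axon side, 28 genes of axonal partners of myelin and of receptors for myelin proteins gave 19 genes tested and 0 called, with a median log2 fold change of 0.78. Their summed level was 3344, 3874, 11544, 8622 and 4460 CPM in *Fezf2+ve* libraries 1 to 5 and 9124, 527, 587, 246 and 923 CPM in *Fezf2-ve* libraries. Only in animal 1 was the *Fezf2-ve* library the higher, and it lay above 4 of the 5 *Fezf2+ve* libraries. *Nfasc*, which encodes neurofascin, with a neuronal form at nodes and a glial form in the paranodal loops, had the most reads. It had 1065 of its 1908 reads in the *Fezf2-ve* library of animal 1 and 725 in the *Fezf2+ve* library of animal 5, and 3 to 52 in the others. *Cntn1*, a paranodal adhesion protein of the axon, had 6, 4, 491, 440 and 132 reads in *Fezf2+ve* libraries and 422, 1, 5, 1 and 4 in *Fezf2-ve* libraries, so the types overlapped through the *Fezf2-ve* library of animal 1. The log2 fold change of 4.76 ± 1.87 (SE) had an adjusted p of 0.998 after Benjamini-Hochberg adjustment of edgeR's quasi-likelihood test, whereas DESeq2 with the block called *Cntn1* (adjusted p = 0.0581 after Benjamini-Hochberg adjustment) and 1 other gene of the list, *Nrg1*, which edgeR without the block called too.

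Markers of other cell types were read in the same libraries. The 12 pan-neuronal genes summed to 483, 836, 449, 369 and 93.4 CPM in *Fezf2+ve* libraries 1 to 5 and to 131, 112, 142, 99.4 and 68.9 CPM in *Fezf2-ve* libraries. In each animal the *Fezf2+ve* library was the higher. *Map2* had the most reads of this list, with 112, followed by *Syt1*, with 72, whereas *Nefl* had none and *Tubb3* had 1. The sum of 12 genes of cortical projection neurons was 118 to 483 CPM in *Fezf2+ve* and 50.5 to 7184 CPM in *Fezf2-ve* libraries, with 646 of the 728 reads of *Rorb* and 529 of the 588 of *Camk2a* in the *Fezf2-ve* library of animal 3. *Slc17a7* had 11 reads, *Neurod6* and *Neurod2* had 2 each, and *Tbr1* had none. Of the tested genes, 0 of 8 and 0 of 7 were called in these lists. Of 10 interneuron genes 5 had no read, *Pvalb*, *Vip* and *Slc32a1* among them, 1 was tested and not called, and *Reln* had the most reads, with 30, followed by *Npy*, with 7.

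Genes of oligodendrocyte precursors, the dividing cells from which myelinating cells arise, had 7484 reads. The 18 genes of this list, all tested and 0 called, summed to 7415, 5927, 4557, 2131 and 13762 CPM in *Fezf2+ve* libraries 1 to 5 and to 5908, 1526, 4700, 407 and 1392 CPM in *Fezf2-ve* libraries. Animal 3 aside, the *Fezf2+ve* library was the higher, and the types overlapped. *Cspg5* had the most reads, 1508 of 1843 in the *Fezf2+ve* library of animal 5, while *Pdgfra*, which encodes the receptor that defines these cells, had 45, 197, 13, 7 and 94 reads in *Fezf2+ve* libraries 1 to 5 and 53, 22, 52, 14 and 243 in *Fezf2-ve* libraries. *Lhfpl3*, next to *Cspg5* in reads, had 24 to 273 per library.

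The 16 astrocyte genes summed to 7952 CPM in the *Fezf2+ve* library of animal 2 and to 321 to 3875 CPM in the other 9 libraries. Most of this sum was *Slc1a2*, a glutamate transporter, with 7228 CPM there, and without it the library had 725 CPM, the rank of which among the 10 libraries was 5. Of the other genes, *Gpc5* had 556 reads over the 10 libraries and *Gfap* had none. Of the 12 astrocyte genes tested 0 were called. The part of these markers in the myelin values of animal 2 was not tested.

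The 16 microglial genes summed to 279, 204, 110, 79.2 and 128 CPM in *Fezf2+ve* libraries 1 to 5 and to 7164, 5643, 7640, 1892 and 4143 CPM in *Fezf2-ve* libraries, with no overlap. *Ctss*, a lysosomal protease, had the most reads. All 16 were tested and had a log2 fold change below 0, with a median of -4.79. Of these, 12 had an unadjusted p under 0.05, against 3.89% of all genes tested. Among the 12 were *Csf1r*, *C1qa*, *C1qb*, *C1qc*, *Tyrobp*, *Ctss*, *P2ry12*, *Siglech*, *Selplg*, *Tmem119* and *Laptm5*. With the block 0 were called by edgeR's quasi-likelihood test and 11 by DESeq2, and without it edgeR called 12, which became 0 when the *Fezf2+ve* library of animal 2 was left out as well. Over all 7409 genes tested, DESeq2 with the block called 98 and edgeR without the block 279. Of 7 blood genes, 6 were tested, 0 were called by edgeR and 2 (*Hba-a1* and *Hba-a2*) by DESeq2 with the block. All 6 had an unadjusted p under 0.05, against 3.89% of all genes tested, with a median log2 fold change of -4.01. These are the globin genes *Hba-a1*, *Hba-a2*, *Hbb-bs*, *Hbb-bt*, *Hbb-b1* and *Hbb-b2*, near-identical copies whose entries repeat much the same reads. The 7 blood genes summed to 1507, 186, 16.9, 0 and 0 CPM in *Fezf2+ve* libraries 1 to 5 and to 7093, 5609, 367, 478 and 9.19 CPM in *Fezf2-ve* libraries. The 14 genes of endothelium and pericytes, with *Flt1* (26 reads) and *Tek* (12 reads) the most abundant, summed to 23.7 to 111 CPM, and 0 of the 4 tested were called. As CPM are shares of a library, reads of other genes, those of other cell types included, lower the CPM of the myelin genes. The 10 genes with the most reads in a library took 13.3 to 57.1% of its gene reads. The part of the microglial difference in the myelin values was not tested.

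**Figure D4:**
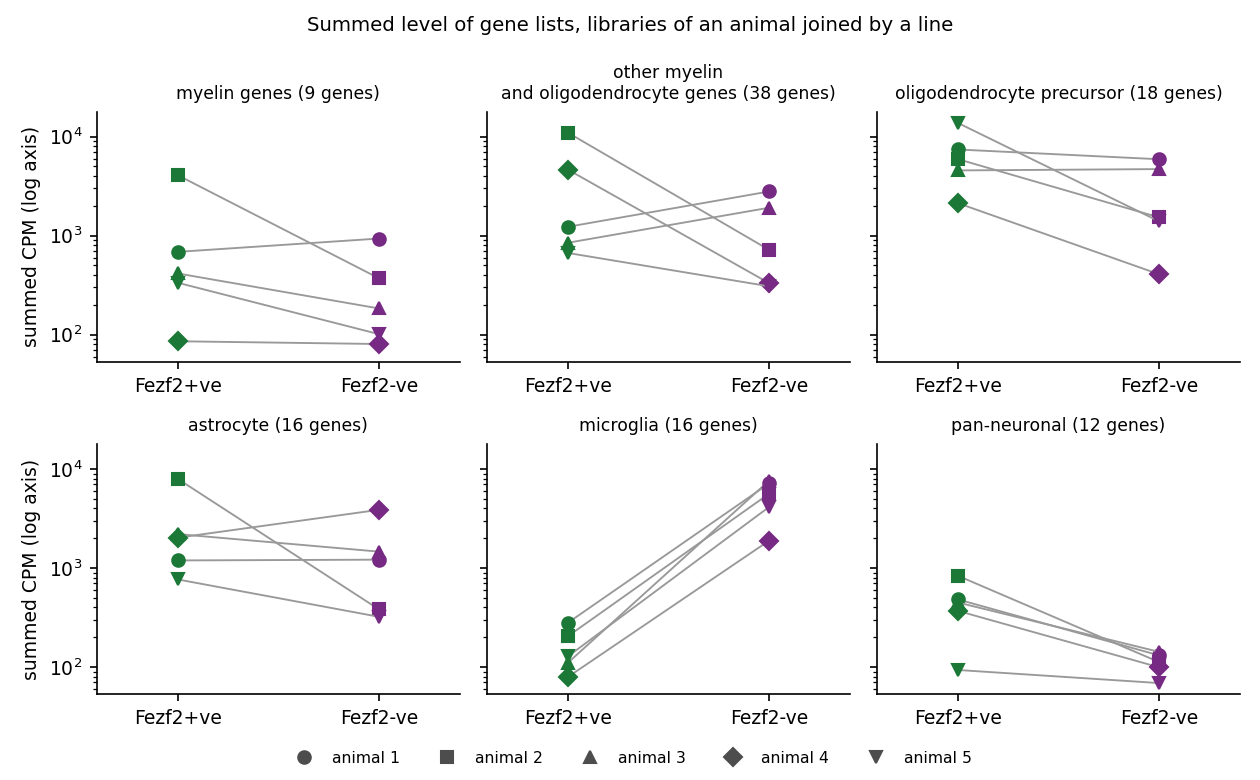
Summed CPM of 6 gene lists on a log axis, with the *Fezf2+ve* library (green) and the *Fezf2-ve* library (purple) of an animal joined by a line. The lines of the myelin genes go down in 4 of the 5 animals and up in animal 1, whereas those of the microglial genes go up in all 5.

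Of the 7402 other genes tested, the 5 whose CPM followed the summed CPM of the myelin genes most closely over the 10 libraries were *Degs1* and *Pea15a* (Spearman's rho 0.98 for both), *Aldoc* and *Tmco3* (0.96 for both) and *Gpld1* (0.95). These values were picked as the highest and are given as a description. *Pea15a*, which encodes a phosphoprotein first described in astrocytes, had 15, 17, 8, 2 and 11 reads in *Fezf2+ve* libraries 1 to 5 and 19, 5, 9, 0 and 1 in *Fezf2-ve* libraries. *Aldoc*, the brain aldolase and an astrocyte marker, had 24, 31, 28, 1 and 25 reads in the *Fezf2+ve* and 40, 3, 4, 3 and 4 in *Fezf2-ve* libraries. Both were low in the libraries of animal 4 and high in the *Fezf2-ve* library of animal 1, as the myelin sum was. *Tmco3* had 34 of its 81 reads in the *Fezf2+ve* library of animal 2 and 40 in the *Fezf2-ve* library of animal 1. *Gpld1*, which encodes a phospholipase that releases GPI-anchored proteins, had 130 of its 170 reads in the *Fezf2+ve* library of animal 2. The median rho over the 7402 genes was 0.20.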

How the data were processed

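Per the labels the authors used bcl2fastq 1.8.4, TopHat2 2.1.1 (mm10) and bedtools 2.26.0 multiCov (RefFlat genes), and the study's methods add sabre for the inline barcodes and the FASTX-Toolkit for trimming; the deposited tables hold these raw read counts of genes and of ERCC spike-in transcripts. The use of strand is not stated, and a read can be counted on each gene it overlaps. Libraries were primed with oligo dT and amplified by PCR and in vitro transcription, and levels of different genes are not compared. The position of reads in a gene, introns included, was not examined here. A deposited table of the authors' DESeq2 comparison (R 3.2.5, DESeq2 1.10.1), with fold changes and p-values, was not used here.

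From the deposited counts, CPM are reads per 1000000 gene reads of a library. The 7409 of 24453 genes that reached 10 CPM in 2 or more libraries were tested with TMM normalization and the quasi-likelihood test of edgeR 4.0.16 in R 4.3.3 (current method, not the legacy one), with the animal as a block, Benjamini-Hochberg adjustment and calls at an adjusted p at or below 0.1. The study's methods name this filter, threshold and design, there with DESeq2. The plan of the analysis did not name the version of the edgeR fit: several were run, all with 0 calls with the block, and the current method was kept because it returned the call counts of an earlier description of these data. The legacy method is among the alternatives. Standard errors come from the information of the fitted model and the quasi-dispersion of the gene. The pairing comes from the sample records, which put the cells of each animal into both types. After the type means were subtracted, the correlation over genes between the libraries of an animal was 0.0283 on average (-0.0297 to 0.0966, 5 pairs). Between libraries of different animals it was -0.0070 on average (-0.124 to 0.123, 20 pairs), a range that covers that of the same-animal pairs. Single values were compared by exact sign-flip permutation over the pairs. ERCC transcripts took 2.79 to 46.7% of the reads on genes and ERCC together and were not used to scale. DESeq2 1.42.0, Python 3.11.15, numpy 2.4.6, pandas 2.3.3, scipy 1.17.1 and matplotlib 3.10.9 were also used.

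The myelin genes and the gene lists were chosen with earlier results of these data known. Named are the 9 myelin genes, the genes of each list with an unadjusted p under 0.05 or else the 2 with the most reads, the 5 genes most like the myelin sum, and genes that overlap a member, although not every gene under this rule is given. Other markers, chosen after their values were seen, are *Sox10*, *Myrf*, *Pdgfra*, *Nrg1*, *Ninj2*, *Evi2a*, *Trf* and those given as having few or no reads. The astrocyte sum without *Slc1a2* was also added then. Positions are those of GENCODE M21 on GRCm38.

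Alternatives were a fit without the block, DESeq2 with the block, its size factors in edgeR, library size only, no filter, 10 CPM in 5 libraries, a threshold of 0.05, each animal left out, TMM-normalized sums, sums without *Mbp* or with equal weights, thinned libraries and detection at 3 reads. The legacy method with and without the block, and a fit without the block and the *Fezf2+ve* library of animal 2, were added after the data had been seen.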

Additional observations from a re-analysis of the deposited data

Results flagged for a closer look

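In 14 of 40 groups of 5 libraries, a library lay far from the other 4 of its type by Dixon's test (gap over range above 0.71), which chance alone does in about 1 of 20 groups of normal values. These counts are sparse and skewed, and 4 libraries at 0 with a read in the other always meet the rule, so the number of groups cannot be set against that rate. In 9 of the 14 it was the *Fezf2+ve* library of animal 2: *Mbp* (2685 CPM), *Mog* (576 CPM), *Mag* (46.4 CPM), *Mobp* (74.3 CPM), *Mal* (37.2 CPM), *Cldn11* (223 CPM), the sum of the myelin genes (4078 CPM), of the astrocyte genes (7952 CPM) and of the interneuron genes (55.7 CPM). The groups share libraries and genes and are not independent. The other 5 were *Mog* in the *Fezf2-ve* library of animal 4 (42.6 CPM), *Mal* in the *Fezf2-ve* library of animal 3 (5.93 CPM, 1 read), *Ugt8a* (83.4 CPM) and the sum of the axonal genes (9124 CPM) in the *Fezf2-ve* library of animal 1, and the sum of the blood genes in the *Fezf2+ve* library of animal 1 (1507 CPM).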

How the results depend on the processing

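None of the myelin genes was called in any setting. Over all genes, the 0 calls became 279 without the animal block, 98 by DESeq2 with it and 638 by the legacy method without the block, and the calls among listed genes 14, 15 and 13. Without the block and the *Fezf2+ve* library of animal 2, both counts were 0. In 163 refits of the 7 myelin genes tested, *Bcas1*, *Degs1*, *Gal3st1*, *Cntn1* and *Nfasc*, 137 kept direction and side of the threshold, 22 reversed and 4 changed call, and the cause was not tested. *Mbp*, *Cldn11* and *Bcas1* kept both in 14 of 14. In these counts the 5 myelin genes without an adjusted p by DESeq2, *Cldn11* among them, are taken as not called there. In the edgeR fits with the block no gene at all was called, so the side of the threshold says little there. The mean log2 ratio of the summed myelin CPM (1.20) was 1.25 with TMM, 0.21 without *Mbp* and 0.57 with equal weights, all above 0 and within the spread over animals.

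Without the block, the log2 fold change reversed for *Cnp* (0.04), *Ugt8a* (-0.91) and *Nfasc* (-0.04), with the same values by the legacy method (0.04, -0.91 and -0.04). Without the block and the *Fezf2+ve* library of animal 2, it reversed for *Mog* (-1.16), *Mobp* (-0.46) and *Ugt8a* (-1.37). *Mog* also reversed by DESeq2 (-0.14) and at 10 CPM in 5 libraries (-0.04), and *Ugt8a* with DESeq2 size factors (-0.03), library size only (-0.01) and no filter (-0.21). The calls among listed genes were 12 microglial genes, *Gal3st1* and *Nrg1* without the block, 11 microglial genes, *Cntn1*, *Nrg1*, *Hba-a1* and *Hba-a2* by DESeq2, and 10 microglial genes, *Gal3st1*, *Nrg1* and *Degs1* by the legacy method without the block. The legacy settings and the one without that library were chosen after seeing the data.

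With 1 animal left out, values ranged over 1.50 to 2.56 (*Mbp*), -1.10 to 1.13 (*Mog*), -0.09 to 1.37 (*Mag*), -0.84 to 0.27 (*Cnp*), 0.10 to 1.00 (*Mobp*), 0.64 to 2.20 (*Cldn11*), -0.74 to 1.15 (*Ugt8a*) and -0.70 to 1.01 (*Gal3st1*). *Mag* was below the filter without animal 1 or 2, without that library, and at 10 CPM in 5 libraries, where *Ugt8a* was too. With 3 reads equal to 13.8 to 33.7 CPM, *Mog*, *Mag*, *Mobp*, *Mal*, *Opalin* and *Ugt8a* were at or below the floor in most libraries.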
